A study of Mus musculus with 12 samples.

Results

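The genes described here encode the protein subunits of the oxidative phosphorylation system, taken by symbol prefix: Ndufa, Ndufb, Ndufc, Ndufs and Ndufv for complex I, Sdha to Sdhd for complex II, Uqcr for complex III, Cox4 to Cox8 for complex IV and Atp5 for complex V. Cox7a1 and Cox8b, the muscle and brown fat isoforms of complex IV subunits, and processed pseudogenes were left out. This gave 82 of the 20632 genes in the count tables, of which 37 belonged to complex I, 4 to complex II, 8 to complex III, 16 to complex IV and 17 to complex V. The prefix was kept where current naming differs: Ndufa4 is now regarded as a complex IV subunit, and Atp5sl, now Dmac2, as an assembly factor of complex I. Nduf symbols were taken only with a number after the prefix, so the subunit gene Ndufab1 fell outside, as did Cyc1 and Usmg5.

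Transcripts were counted by 3' RNA sequencing in white fat from around the uterus (labelled gonadal) of 12 mice pregnant at E17.5, in 3 groups of 4. KO Treg were Tnfrsf11a (Rank) Foxn1 Cre + knockouts given the treatment labelled Treg. KO vehicle carried the same knockout genotype and were given vehicle. WT vehicle were labelled with the same gene without Cre, as wild type, and were given vehicle. Foxn1-Cre is known to act in thymic epithelium, and these counts from whole fat do not check where the gene was altered. What the treatment consisted of, its dose and its time are not given in the labels. Library totals ran from 5551967 counts in WT vehicle 3 to 12972655 in WT vehicle 1, and a count of 3 corresponded to between 0.241 and 0.539 CPM (a gene's count relative to its library's scaled total), a limit that covers counting error only. Adipoq, the adipocyte hormone adiponectin, was at 3881 to 5993 CPM in every library.

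Complexes I and II pass electrons from NADH and succinate to ubiquinone, complex III passes them on to cytochrome c, and complex IV passes them to oxygen. Complexes I, III and IV pump protons, and complex V, the ATP synthase, uses the gradient to make ATP. White fat cells hold fewer mitochondria than brown or beige ones, in which Ucp1 lets protons back without making ATP. Most subunits are encoded in the nucleus, and all members here are. The subunits encoded in the mitochondrial genome were not analysed here.

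Of the 82 genes, 77 passed the filter on low counts (36, 4, 8, 12 and 17 of complexes I to V) among 12175 genes tested. The other 5 are isoforms known mainly from other tissues or states. Cox7b2, a testis isoform, had 0 counts in all 12 libraries. Cox8c, another testis isoform, had at most 3 counts in a library, Cox4i2, the lung isoform, at most 8, Ndufa4l2, a hypoxia-induced paralog of Ndufa4, at most 12, and Cox6a2, the heart and muscle isoform, 1 to 26. Among the tested members, mean levels over the 12 libraries ran from 2.64 CPM for Cox6b2 to 1717 CPM for Atp5g3, on a scale of 3' ends that was not divided by gene length. All 82 genes were found in GENCODE M21 (GRCm38, mm10), on 19 chromosomes. Exons of 5 members overlapped another gene on the same strand and those of 25 a gene on the opposite strand. For 18 members the last 200 transcript bases matched another gene at 97% identity or more over at least 100 bases. For Atp5o, Cox5a, Ndufb2, Ndufb6, Ndufb8 and Uqcrc2 the matching gene was also an overlapping gene, so these counts are not separate. The sources used here do not give the strand setting of the counting, so reads of such genes are uncertain.

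The subunit genes varied together from library to library, also within groups. WT vehicle 1 had the highest level of 57 of the 77 tested members, against 9.95% of all genes tested, and KO vehicle 1 had the lowest level of 56, against 10.6% of all genes. KO vehicle 3, from the same group as KO vehicle 1, was highest for 8 members. The median deviation of a library from each gene's own mean was -0.02, 0.02, 0.03 and 0.13 on the log2 CPM scale in KO Treg 1 to 4, -0.40, -0.14, 0.27 and -0.16 in KO vehicle 1 to 4, and 0.45, 0.10, 0.02 and -0.20 in WT vehicle 1 to 4. The 4 KO Treg libraries thus lay close together, while KO vehicle and WT vehicle each held libraries above and below all 4 of them. When each library's median was taken out, the median SD of a member across libraries went down to 0.133 from 0.266 on the log2 scale, and 62 members had an SD under 0.2, against 6 before. These are descriptions of 12 libraries in which all members share depth and scaling. In whole tissue, fewer cells of a type and less RNA per cell cannot be told apart.

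**Figure D1:**
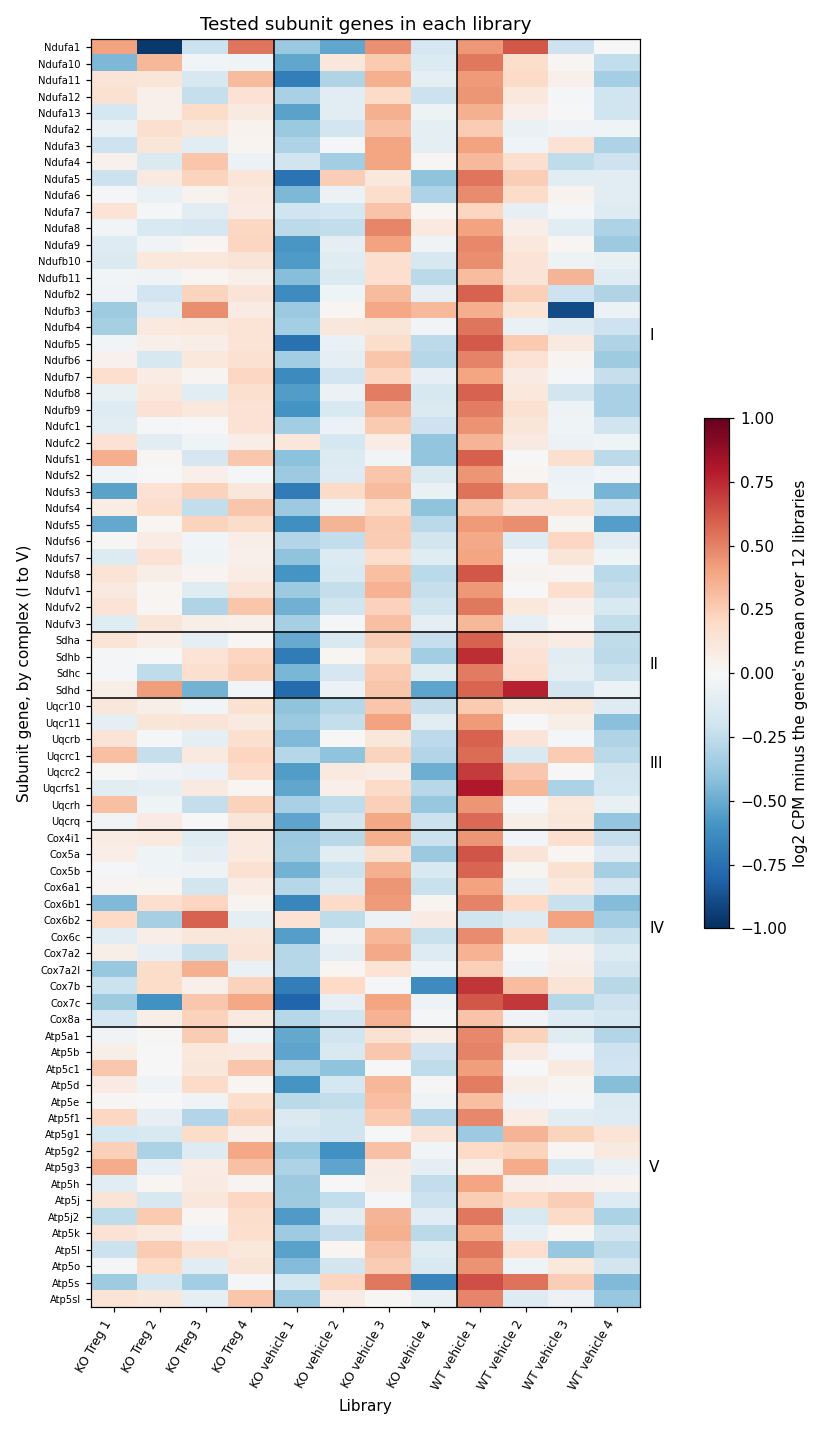
Each row is 1 of the 77 tested subunit genes, grouped by complex I to V, and each column 1 library of KO Treg, KO vehicle or WT vehicle; colour gives log2 CPM minus the gene's mean over the 12 libraries. The column of WT vehicle 1 is red and that of KO vehicle 1 blue for most genes, while the 4 KO Treg columns are mostly pale.

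Summed over their members, all 5 complexes followed this library order closely. The summed level of all 82 genes was 33354, 34420, 34598 and 36697 CPM in KO Treg 1 to 4, 24680, 30471, 40573 and 30165 CPM in KO vehicle 1 to 4, and 45466, 36068, 32677 and 29054 CPM in WT vehicle 1 to 4. The group means were 34767 ± 1399 CPM in KO Treg, 31472 ± 6625 CPM in KO vehicle and 35816 ± 7042 CPM in WT vehicle (SD, n = 4 each). The highest KO Treg library had 1.10 times the level of the lowest, against 1.64 times in KO vehicle and 1.56 times in WT vehicle, and the difference in spread was not tested.

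Complex I averaged 11040 ± 592 CPM in KO Treg, 10253 ± 2275 CPM in KO vehicle and 11493 ± 2339 CPM in WT vehicle (SD, n = 4 each). Complex II averaged 1098 ± 66.3 CPM in KO Treg, 960.0 ± 215 CPM in KO vehicle and 1177 ± 318 CPM in WT vehicle. Complex III averaged 4619.5 ± 312 CPM in KO Treg, 4064 ± 884 CPM in KO vehicle and 4839 ± 992 CPM in WT vehicle. In each of these complexes, KO vehicle 3 lay above every KO Treg library and KO vehicle 1 below every other library, so the groups overlapped. Complex IV averaged 7141 ± 486 CPM in KO Treg, 6754 ± 1497 CPM in KO vehicle and 7443 ± 1521 CPM in WT vehicle. Complex V averaged 10869 ± 325 CPM in KO Treg, 9441 ± 1805 CPM in KO vehicle and 10865 ± 1901 CPM in WT vehicle, with KO vehicle 3 again above all 4 KO Treg libraries. The difference of means between KO vehicle and WT vehicle was smaller than the SD of either group for complexes I, III, IV and V, and smaller than that of WT vehicle for complex II.

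**Figure D2:**
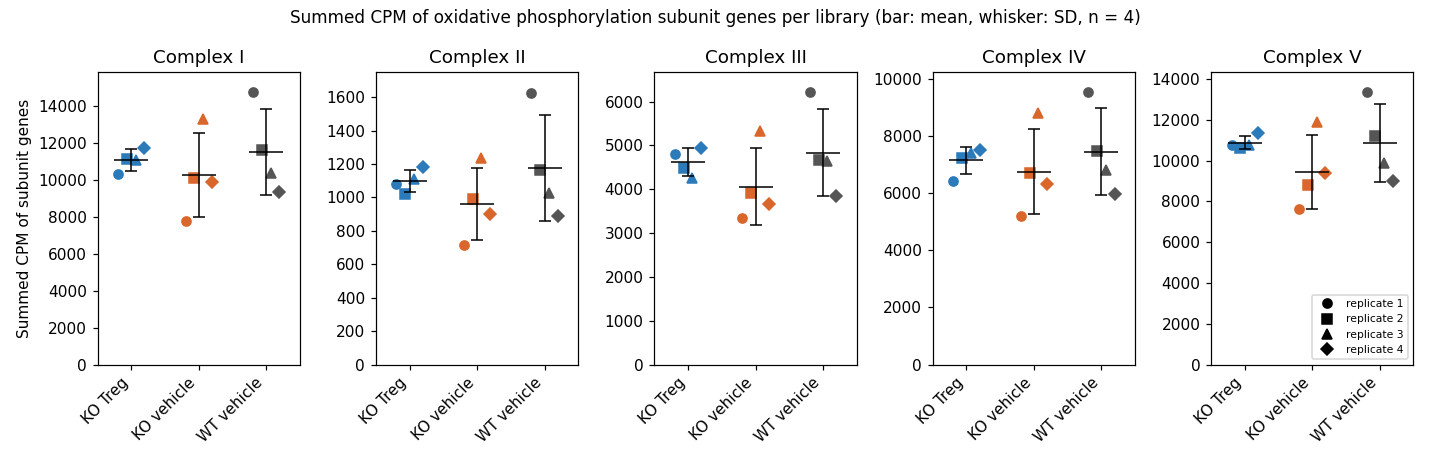
Summed CPM (y axis, from 0) of the subunit genes of complexes I to V in each library of KO Treg, KO vehicle and WT vehicle, with marker shapes for replicates 1 to 4, a bar at the mean and whiskers of 1 SD. In all 5 panels WT vehicle 1 is the highest point and KO vehicle 1 the lowest, and the KO Treg points lie close together.

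Promoter sequences were read for every member with an entry, whatever its level, to show which motifs the subunit genes share. RefSeq promoters (GRCm38.p6, 250 bases before to 50 after a start site) were available for 64 of the 82 genes, 69 promoters in all. The motif of NRF1, a transcription factor known for activating respiratory genes (GCGC, any base, then TGCGC), stood on either strand in 18 of the 69 promoters (26.1%), against 4.60% of all 32851 promoters. CCGGAAG, an ETS factor motif bound by NRF2 (whose DNA-binding subunit is Gabpa), stood in 16 (23.2%, against 8.86%), and AAGATGGC, the YY1 motif, in 9 (13%, against 2.75%). TCAAGGTCA, the motif of the estrogen-related receptors, stood in 2, those of Atp5g3 and Sdhd (2.90%, against 0.423%). TGACGTCA, the cyclic AMP response element, stood in 4 (5.80%, against 1.79%), GGGGCGGGG, the GC box, in 10 (14.5%, against 11.4%), CCAAT in 29 (42.0%, against 37.4%) and CACGTG, the E-box, in 6 (8.70%, against 7.15%). Both strands were searched for each motif, no motif contains another, and CCGGAAG can share its last 3 bases with AAGATGGC. A match is a run of letters and not a site shown to be bound.

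The promoters of 5 complex V genes are printed because the members with the smallest p below, and the 3 genes of a single protein, are among them. Each is given 5' to 3' on the gene's own strand, in lower case, with matches to the NRF1, ETS, YY1 and estrogen-related receptor motifs in capitals.
Atp5c1, chr2:10080383-10080682, minus strand: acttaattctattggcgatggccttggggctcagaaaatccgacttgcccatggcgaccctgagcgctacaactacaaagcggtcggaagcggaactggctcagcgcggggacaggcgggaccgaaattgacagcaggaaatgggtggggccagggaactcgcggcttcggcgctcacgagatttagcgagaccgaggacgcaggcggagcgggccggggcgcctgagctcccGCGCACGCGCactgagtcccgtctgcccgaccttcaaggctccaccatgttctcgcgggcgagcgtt
Atp5j, chr16:84834927-84835226, minus strand: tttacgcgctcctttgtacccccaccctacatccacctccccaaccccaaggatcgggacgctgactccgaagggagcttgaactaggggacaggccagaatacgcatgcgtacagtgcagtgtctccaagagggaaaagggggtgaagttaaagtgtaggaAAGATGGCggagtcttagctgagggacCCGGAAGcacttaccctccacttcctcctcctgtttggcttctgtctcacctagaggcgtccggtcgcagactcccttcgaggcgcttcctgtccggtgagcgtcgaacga
Atp5g3, chr2:73911277-73911576, minus strand: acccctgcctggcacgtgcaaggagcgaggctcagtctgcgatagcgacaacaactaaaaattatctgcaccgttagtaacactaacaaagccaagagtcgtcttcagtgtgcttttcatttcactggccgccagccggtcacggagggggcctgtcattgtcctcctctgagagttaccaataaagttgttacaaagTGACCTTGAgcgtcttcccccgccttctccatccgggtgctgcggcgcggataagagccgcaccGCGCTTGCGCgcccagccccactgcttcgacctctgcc
Atp5g1, chr11:96075582-96075881, minus strand: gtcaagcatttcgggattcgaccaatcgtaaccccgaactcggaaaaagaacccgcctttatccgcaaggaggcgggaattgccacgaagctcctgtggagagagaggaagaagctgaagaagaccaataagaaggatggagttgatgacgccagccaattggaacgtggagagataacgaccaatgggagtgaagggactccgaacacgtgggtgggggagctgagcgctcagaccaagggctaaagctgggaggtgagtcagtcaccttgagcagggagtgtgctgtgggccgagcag
Atp5g2, chr15:102670998-102671297, minus strand: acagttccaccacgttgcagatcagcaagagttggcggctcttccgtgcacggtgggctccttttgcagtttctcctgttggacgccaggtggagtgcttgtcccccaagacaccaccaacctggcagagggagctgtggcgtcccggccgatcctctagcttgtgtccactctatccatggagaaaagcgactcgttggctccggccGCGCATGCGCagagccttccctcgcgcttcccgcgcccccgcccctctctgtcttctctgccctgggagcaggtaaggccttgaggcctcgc
The capitals mark the NRF1 motif in Atp5c1, where it is read on the opposite strand, and in Atp5g2. In Atp5j they mark the YY1 and then the ETS motif. In Atp5g3 they mark the estrogen-related receptor motif, read on the opposite strand, followed by the NRF1 motif. Atp5g1 holds none of these 4 motifs in this window and holds CCAAT and CACGTG, left in lower case. Atp5c1 and Atp5j each have 2 promoters among those read, of which 1 is shown. The promoter with more of the 4 marked motifs was chosen, or the first by position if they were equal.

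The first comparison set knockouts given vehicle against wild types given vehicle. Most subunit genes had a fold change slightly below 0 in KO vehicle, and none passed the test. Of the 77 tested members, 74 (96.1%) had a log2 fold change below 0, against 50.8% of all genes tested, with a median of -0.20, against -0.0039 over all genes. By complex the median was -0.20 for complex I (34 of 36 below 0), -0.33 for complex II (4 of 4), -0.28 for complex III (8 of 8), -0.14 for complex IV (11 of 12) and -0.20 for complex V (17 of 17). Since the members share the ups and downs of whole libraries, a count of like signs does not count independent genes. By the edgeR quasi-likelihood test, with p-values adjusted over all 12175 genes, 0 members were called at an adjusted p under 0.05, against 0.197% of all genes called higher and 0.0821% called lower. At an unadjusted p under 0.05, 6 members (7.79%) were lower, against 5.45% of all genes, and 0 were higher, against 6.98%. DESeq2 and limma voom called 0 members, against 2.13% of all genes by DESeq2 and 0.361% by limma voom in either direction. No member had groups without overlap in this comparison, against 4.17% of all genes higher and 2.33% lower.

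In complex I, the member with the smallest p was Ndufb11, an accessory subunit of the membrane arm (chromosome X, 20615326 to 20617619). Ndufb11 was at 192, 189.9, 198 and 202 CPM in KO Treg 1 to 4, at 145, 176, 219 and 162 CPM in KO vehicle 1 to 4 and at 241, 214, 246 and 179.5 CPM in WT vehicle 1 to 4. KO vehicle 1, 2 and 4 lay below every other library, and KO vehicle 3 lay within the WT vehicle range (log2 change -0.32 ± 0.14 SE, edgeR adjusted p = 0.350). Its 3' end closely matches the pseudogene Gm6444 and its exons overlap Rbm10 on the opposite strand, so its reads are uncertain. Ndufs1, the iron-sulfur subunit next to the site where NADH is oxidised, was also among the 6 (chromosome 1, 63143596 to 63176833). Ndufs1 was at 126, 99.3, 86.9 and 118 CPM in KO Treg 1 to 4, at 73.5, 88.8, 96.1 and 74.4 CPM in KO vehicle 1 to 4 and at 148, 97.6, 109 and 81.5 CPM in WT vehicle 1 to 4. KO vehicle 2 and 3 lay above WT vehicle 4 (log2 change -0.39 ± 0.18 SE, edgeR adjusted p = 0.370), and its exons overlap Eef1b2 on the opposite strand. Ndufb8, an accessory membrane arm subunit with the largest mean count of complex I, shows the pattern of most members. Ndufb8 was at 1215, 1376, 1183 and 1432 CPM in KO Treg 1 to 4, at 871, 1233, 1823 and 1145 CPM in KO vehicle 1 to 4 and at 1932, 1382, 1131 and 1025 CPM in WT vehicle 1 to 4. WT vehicle 1 and KO vehicle 3 stood above the other 10 libraries (log2 change -0.11 ± 0.22 SE, edgeR adjusted p = 0.894), and its exons overlap the transcript Gm20538 on the same strand.

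In complex II, which is also an enzyme of the citric acid cycle, Sdhb, the iron-sulfur subunit, had the largest mean count (chromosome 4, 140961203 to 140979193). Sdhb was at 365, 371, 407 and 429 CPM in KO Treg 1 to 4, at 227, 374, 419 and 290.3 CPM in KO vehicle 1 to 4 and at 615, 408, 341 and 309 CPM in WT vehicle 1 to 4. WT vehicle 1 was highest and KO vehicle 1 lowest, and KO vehicle 3 lay above 3 of the 4 WT vehicle libraries (log2 change -0.35 ± 0.21 SE, edgeR adjusted p = 0.548). Sdha, the flavoprotein subunit, averaged 347 ± 24.2 CPM in KO Treg, 309 ± 68.3 CPM in KO vehicle and 380.4 ± 93.8 CPM in WT vehicle, and Sdhc, a membrane anchor, 353 ± 51.6 CPM in KO Treg, 320.2 ± 66.1 CPM in KO vehicle and 373 ± 87.8 CPM in WT vehicle (SD, n = 4 each). Sdhd, the other membrane anchor, had the smallest p of the complex and few counts, 19 to 76 in a library. Sdhd was at 4.27, 5.48, 2.95 and 4.01 CPM in KO Treg 1 to 4, at 2.40, 3.93, 4.95 and 2.84 CPM in KO vehicle 1 to 4 and at 6.11, 6.97, 3.59 and 3.93 CPM in WT vehicle 1 to 4. The groups overlapped, with 2 WT vehicle libraries above all others and 2 within the KO vehicle range (log2 change -0.56 ± 0.30 SE, edgeR adjusted p = 0.466).

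In complex III, Uqcrc2, a core protein of the matrix side, had the smallest p (chromosome 7, 120635176 to 120659524). Uqcrc2 was at 236, 229, 227 and 267 CPM in KO Treg 1 to 4, at 159.8, 252, 248 and 168 CPM in KO vehicle 1 to 4 and at 382, 283, 236 and 208 CPM in WT vehicle 1 to 4. KO vehicle 1 and 4 lay below all other libraries, while KO vehicle 2 and 3 lay above WT vehicle 3 and 4 (log2 change -0.42 ± 0.19 SE, edgeR adjusted p = 0.375). Its exons overlap Pdzd9 on the opposite strand. Uqcrh, the hinge protein at the cytochrome c side, had the largest mean count of the complex. Uqcrh was at 1663, 1312, 1142 and 1582 CPM in KO Treg 1 to 4, at 1076, 1133, 1594 and 1038 CPM in KO vehicle 1 to 4 and at 1834, 1338, 1454 and 1279 CPM in WT vehicle 1 to 4. KO vehicle 3 was exceeded only by WT vehicle 1 and KO Treg 1 among these 12 libraries, and KO vehicle 1, 2 and 4 lay below the other 9 libraries (log2 change -0.29 ± 0.17 SE, edgeR adjusted p = 0.546).

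In complex IV, Cox7b, a small subunit on the X chromosome (chromosome X, 106015700 to 106022450), had the smallest p. Cox7b was at 242, 319, 291 and 331 CPM in KO Treg 1 to 4, at 175, 323, 279.5 and 182 CPM in KO vehicle 1 to 4 and at 462, 348, 309 and 232 CPM in WT vehicle 1 to 4. KO vehicle 1 and 4 lay below all other libraries, and KO vehicle 2 and 3 lay within the WT vehicle range (log2 change -0.49 ± 0.22 SE, edgeR adjusted p = 0.374). Cox8a, a small subunit with the largest mean count of the complex, showed almost no difference in means. Cox8a was at 1195, 1406, 1586 and 1447 CPM in KO Treg 1 to 4, at 1107, 1189, 1717 and 1337 CPM in KO vehicle 1 to 4 and at 1648, 1318, 1234 and 1196 CPM in WT vehicle 1 to 4. KO vehicle held both the highest and the lowest library (log2 change -0.01 ± 0.16 SE, edgeR adjusted p = 0.988).

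In complex V, Atp5j, a coupling factor in the stalk that holds the ATP synthase head still, had the smallest p of all members in this comparison (chromosome 16, 84827866 to 84835625). Atp5j was at 191, 156, 189 and 202 CPM in KO Treg 1 to 4, at 136, 147, 173 and 150.2 CPM in KO vehicle 1 to 4 and at 207, 199, 207 and 159.5 CPM in WT vehicle 1 to 4. KO vehicle 1, 2 and 4 lay below the other 9 libraries, and KO vehicle 3 lay above WT vehicle 4 and KO Treg 2 (log2 change -0.35 ± 0.13 SE, edgeR adjusted p = 0.262). Its exons overlap on the opposite strand those of Gabpa, which encodes the DNA-binding subunit of NRF2. Atp5c1, the gamma subunit that turns inside the head, showed the same 3 low libraries (chromosome 2, 10056016 to 10080510). Atp5c1 was at 507, 422, 458 and 512 CPM in KO Treg 1 to 4, at 338, 319.8, 424 and 353 CPM in KO vehicle 1 to 4 and at 563, 421, 449.6 and 368 CPM in WT vehicle 1 to 4. KO vehicle 1, 2 and 4 again lay below all other libraries (log2 change -0.33 ± 0.14 SE, edgeR adjusted p = 0.360), and its 3' end closely matches the pseudogene Gm8722. Atp5b, the catalytic beta subunit, averaged 1483 ± 48.6 CPM in KO Treg, 1301 ± 302 CPM in KO vehicle and 1533 ± 329 CPM in WT vehicle (SD, n = 4 each; log2 fold change -0.24 ± 0.17 SE, edgeR adjusted p = 0.633).

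Fold changes of the 77 members ran from -0.56 (Sdhd) to 0.16 (Ndufb3), and only Ndufb3, Cox6b2 and Ndufa8 were above 0. The size of the median depended on single libraries. The median of -0.20 became -0.08 without WT vehicle 1 and -0.36 without KO vehicle 3. It was -0.13 without KO vehicle 1 and KO Treg 2, the libraries with most placental transcripts (below, the placental transcript libraries). It was -0.40 in the animals of the lower number series alone, which hold all 4 KO vehicle animals but 2 of the 4 WT vehicle animals.

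The second comparison asked how the treatment labelled Treg changed the subunit genes within the knockout. Most members had a fold change slightly above 0 in KO Treg, and none passed the test. Of the 77 tested members, 6 (7.79%) had a log2 fold change below 0, against 50.3% of all genes, and the median was 0.13, against -0.0018 over all genes. By complex the median was 0.12 for complex I (3 of 36 below 0), 0.21 for complex II (0 of 4), 0.19 for complex III (0 of 8), 0.10 for complex IV (2 of 12) and 0.15 for complex V (1 of 17). Both comparisons use the same 4 KO vehicle libraries, so a low level in KO vehicle moves them in opposite directions. By edgeR 0 members were called at an adjusted p under 0.05, against 0% of all genes called higher and 0.00821% called lower. At an unadjusted p under 0.05, 3 members (3.90%) were higher, against 3.69% of all genes, and 0 were lower, against 5.08%. DESeq2 and limma voom called 0 members here too, against 0.501% of all genes by DESeq2 and 0.00821% by limma voom. No member had groups without overlap, against 2.01% of all genes higher and 3.03% lower.

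The 3 members higher at an unadjusted p under 0.05 were 3.9% of those tested, near the 3.69% of all genes. They all belong to the ATP synthase. They were Atp5c1 (log2 change 0.40 ± 0.14 SE, edgeR adjusted p = 0.440), Atp5g3 (0.37 ± 0.16 SE, edgeR adjusted p = 0.521) and Atp5j (0.28 ± 0.13 SE, edgeR adjusted p = 0.550). For Atp5c1, all 4 KO Treg libraries lay above KO vehicle 1, 2 and 4, and KO vehicle 3 lay just above KO Treg 2. Atp5j had the same arrangement, with KO vehicle 3 above KO Treg 2. Atp5g3 encodes subunit c, which forms the rotating ring in the membrane (chromosome 2, 73908447 to 73911326). Atp5g3 was at 2190, 1593, 1780.4 and 2066 CPM in KO Treg 1 to 4, at 1362, 1171, 1778 and 1579 CPM in KO vehicle 1 to 4 and at 1759.7, 2184, 1519 and 1618 CPM in WT vehicle 1 to 4. KO vehicle 1, 2 and 4 lay below all 4 KO Treg libraries, and KO vehicle 3 above KO Treg 2. Without KO vehicle 3, the log2 fold changes of Atp5c1, Atp5g3 and Atp5j were 0.51, 0.49 and 0.37. Their edgeR adjusted p were then 0.243, 0.326 and 0.357. KO vehicle 3 was the highest KO vehicle library for all 3 genes, so leaving it out had to enlarge the changes. These values therefore add no support.

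Among the other complexes, the members with the smallest p were Ndufs1 of complex I (log2 change 0.37 ± 0.18 SE, edgeR adjusted p = 0.574), Sdhb of complex II (0.26 ± 0.21 SE, edgeR adjusted p = 0.794), Uqcrc1 of complex III (0.28 ± 0.19 SE, edgeR adjusted p = 0.737) and Cox7b of complex IV (0.30 ± 0.22 SE, edgeR adjusted p = 0.770). Uqcrc1 is the other core protein of complex III (chromosome 9, 108936633 to 108949623). Uqcrc1 was at 87.8, 60.6, 76.1 and 82.8 CPM in KO Treg 1 to 4, at 58.5, 53.9, 83.3 and 58.1 CPM in KO vehicle 1 to 4 and at 105, 64.1, 85.0 and 59.3 CPM in WT vehicle 1 to 4. KO vehicle 3 lay among the KO Treg libraries, and the other 3 KO vehicle libraries lay below all 4 of them. The 6 members below 0 were Atp5s, Ndufa8, Ndufb3, Ndufa3, Cox6b1 and Cox7a2, with edgeR adjusted p between 0.895 and 0.991.

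The median of 0.13 became 0.06 without KO vehicle 1, 0.29 without KO vehicle 3 and 0.05 without the placental transcript libraries. It was 0.22 with the number series as a covariate and 0.35 without the 3 libraries with most Ucp1. This last setting left only KO vehicle 1 and 4 in KO vehicle, with median deviations of -0.40 and -0.16. It took out KO vehicle 3, the highest of its group at 0.27, so the median had to grow and the value adds no support.

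The third comparison set treated knockouts against wild types given vehicle. Of the 3 comparisons this one had the smallest median shift, and no member passed the test. The median log2 fold change was -0.07, against -0.0040 over all genes, with 60 of 77 members (77.9%) below 0, against 51% of all genes. By complex the median was -0.07 for complex I (29 of 36 below 0), -0.11 for complex II (4 of 4), -0.07 for complex III (7 of 8), -0.08 for complex IV (9 of 12) and -0.05 for complex V (11 of 17). By edgeR 0 members were called at an adjusted p under 0.05, against 0% of all genes in either direction. At an unadjusted p under 0.05, 0 members were higher or lower, against 1.54% and 1.32% of all genes. The count by DESeq2 and limma voom was 0 members, against 0.00822% of all genes by DESeq2 and 0% by limma voom. No member had groups without overlap, against 0.813% of all genes higher and 0.821% lower. The WT vehicle libraries are shared with the first comparison and the KO Treg libraries with the second.

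The member with the smallest p was Atp5s, known as factor B and needed for coupling in the ATP synthase, with 13 to 50 counts in a library. Atp5s was at 2.01, 2.28, 2.02 and 2.55 CPM in KO Treg 1 to 4, at 2.28, 3.0, 3.71 and 1.62 CPM in KO vehicle 1 to 4 and at 4.02, 3.75, 3.05 and 1.90 CPM in WT vehicle 1 to 4. WT vehicle 1 to 3 lay above all 4 KO Treg libraries and WT vehicle 4 below them (log2 change -0.53 ± 0.32 SE, edgeR adjusted p = 1.0). Uqcrfs1, the Rieske iron-sulfur protein of complex III, had the smallest p of its complex (chromosome 13, 30540308 to 30545362). Uqcrfs1 was at 266, 268, 305 and 290.4 CPM in KO Treg 1 to 4, at 199.6, 297, 326 and 237 CPM in KO vehicle 1 to 4 and at 499.9, 361, 230.4 and 254 CPM in WT vehicle 1 to 4. All 4 KO Treg libraries lay within the WT vehicle range, which WT vehicle 1 extended upwards (log2 change -0.25 ± 0.21 SE, edgeR adjusted p = 1.0). Cox5a, a matrix-side subunit of complex IV, was the first of its complex. Cox5a was at 541, 499, 482 and 552 CPM in KO Treg 1 to 4, at 404, 478, 577 and 398 CPM in KO vehicle 1 to 4 and at 799, 565, 522 and 472 CPM in WT vehicle 1 to 4. The KO Treg libraries again lay within the WT vehicle range (log2 change -0.18 ± 0.17 SE, edgeR adjusted p = 1.0). Ndufb11 and Sdhd had log2 fold changes of -0.17 and -0.31 in this comparison (edgeR adjusted p = 1.0 each).

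The median turned to 0.08 without WT vehicle 1. It was also 0.08 without the 3 libraries with most Ucp1, of which only WT vehicle 1 belongs to the groups compared here. Both settings thus take the same library out of this comparison and are not separate results. It was -0.16 without WT vehicle 4 and -0.26 in the lower number series alone. A joint edgeR test over all 3 groups called 0 members, against 0.0329% of all genes. At an unadjusted p under 0.05 it gave 2 members (2.60%), Atp5c1 and Atp5j, against 9.44% of all genes.

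**Figure D3:**
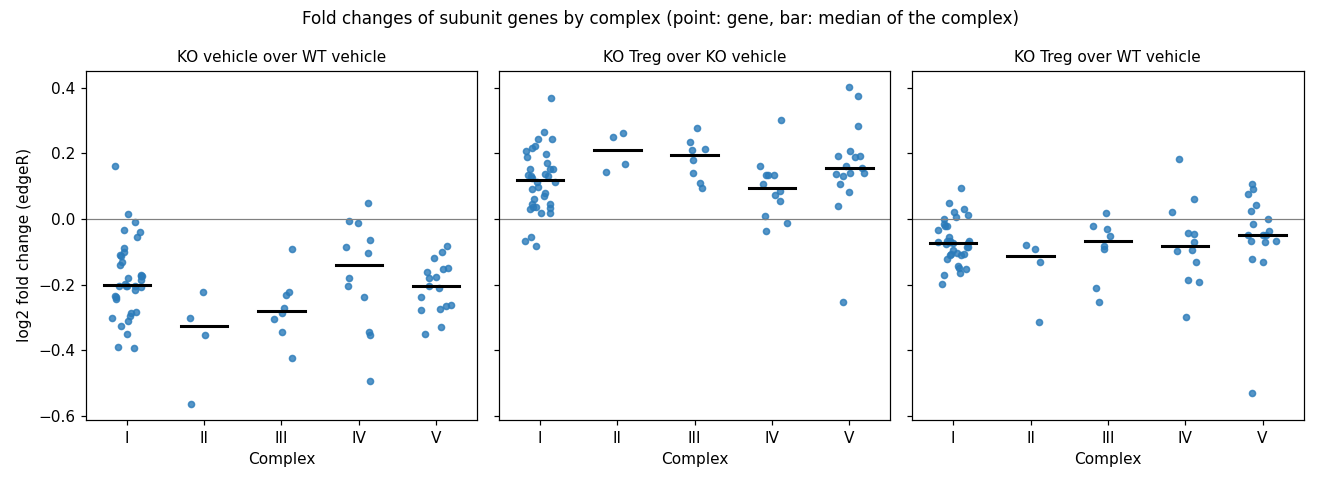
Each point is the edgeR log2 fold change (y axis) of 1 tested subunit gene, by complex I to V (x axis), with a bar at each complex's median, for KO vehicle over WT vehicle, KO Treg over KO vehicle and KO Treg over WT vehicle. Points lie mostly below 0 in the first panel, mostly above 0 in the second and close to 0 in the third, and no point has an adjusted p under 0.05.

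Some subunits exist in several isoforms, and the share of an isoform in its set does not depend on how libraries are scaled. Atp5g1, Atp5g2 and Atp5g3 encode the same mature subunit c behind different import signals. Atp5g1 was at 179, 181, 229 and 209.8 CPM in KO Treg 1 to 4, at 179, 176, 203 and 222 CPM in KO vehicle 1 to 4 and at 157, 256, 236 and 222 CPM in WT vehicle 1 to 4. Atp5g2 was at 209, 143, 162 and 232 CPM in KO Treg 1 to 4, at 137, 117, 218 and 175 CPM in KO vehicle 1 to 4 and at 204, 208, 180.0 and 189 CPM in WT vehicle 1 to 4. Atp5g1 was the single tested member at its lowest in WT vehicle 1, the library in which most members were highest. Reads of Atp5g1 and Atp5g2 are uncertain, since their 3' ends closely match Pdzd2 and the pseudogenes Gm10175 and Gm10231.

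Of the subunit c counts, Atp5g3 took 84.9, 83.1, 82.0 and 82.4% in KO Treg 1 to 4, 81.2, 80.0, 80.9 and 79.9% in KO vehicle 1 to 4, and 83.0, 82.5, 78.5 and 79.8% in WT vehicle 1 to 4. All 4 KO Treg shares lay above all 4 KO vehicle shares, and the WT vehicle shares overlapped with those of both. The mean was 83.1% ± 1.3 in KO Treg, 80.5% ± 0.622 in KO vehicle and 80.9% ± 2.16 in WT vehicle (SD, n = 4 each). The difference of 2.59 percentage points between KO Treg and KO vehicle had an exact two-sided permutation p of 0.0286, the smallest that 4 against 4 allows, and an adjusted p of 0.429 over the 15 isoform tests, so it did not pass. Atp5g1 took 8.84% ± 1.54, 10.8% ± 1.18 and 10.1% ± 2.05 in KO Treg, KO vehicle and WT vehicle, and Atp5g2 took 8.07% ± 0.840, 8.72% ± 0.877 and 9.02% ± 0.797. No other isoform share passed either, with exact permutation p adjusted to at least 0.714 over the 15 tests.

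**Figure D4:**
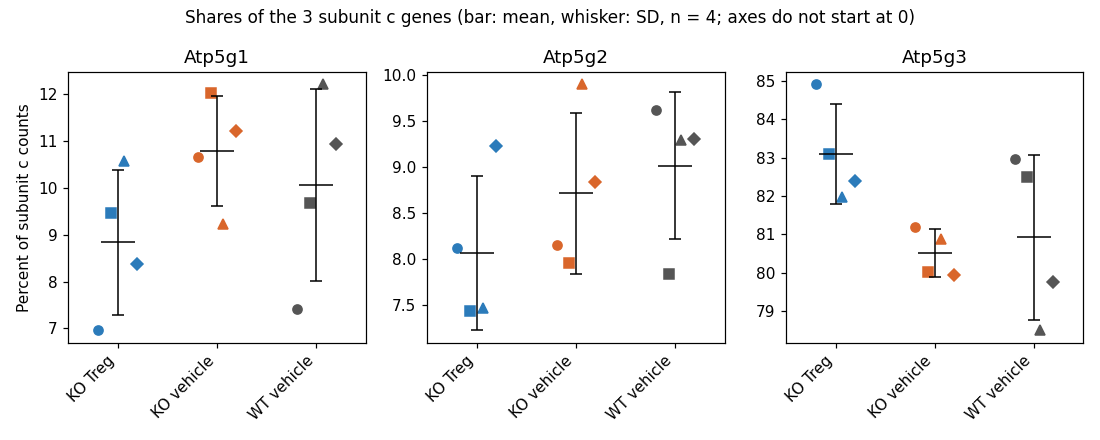
Percent of the subunit c counts (y axes, not from 0) that came from Atp5g1, Atp5g2 and Atp5g3 in each library of KO Treg, KO vehicle and WT vehicle, with marker shapes for replicates 1 to 4, a bar at the mean and whiskers of 1 SD. In the Atp5g3 panel the 4 KO Treg points, from 82.0% to 84.9%, lie above the 4 KO vehicle points, from 79.9% to 81.2%, and the WT vehicle points run from 78.5% to 83.0%.

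In complex IV, Cox7a2, the widely expressed isoform, was set against Cox7a2l, a paralog known for its part in joining complexes III and IV. Of their summed counts, Cox7a2 took 65.1, 53.4, 47.9 and 61.1% in KO Treg 1 to 4, 57.9, 56.0, 61.8 and 56.4% in KO vehicle 1 to 4, and 59.7, 58.5, 57.5 and 58.7% in WT vehicle 1 to 4. KO Treg spanned the other groups, with means of 56.9% ± 7.67 in KO Treg, 58.0% ± 2.64 in KO vehicle and 58.6% ± 0.913 in WT vehicle (SD, n = 4 each). Cox6b1 took 99.5% to 99.8% of the Cox6b counts in all libraries, and Cox6b2, its testis isoform, had 16 to 28 counts.

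Cox4i1, Cox6a1 and Ndufa4 passed the filter on low counts, while their partners Cox4i2, Cox6a2 and Ndufa4l2 did not. Cox4i1 was at 559, 568, 487 and 566 CPM in KO Treg 1 to 4, at 413, 437, 679.6 and 457 CPM in KO vehicle 1 to 4 and at 719, 521, 595 and 453 CPM in WT vehicle 1 to 4. Cox6a1 was at 642, 643, 554 and 666 CPM in KO Treg 1 to 4, at 518, 574, 857 and 540.2 CPM in KO vehicle 1 to 4 and at 835, 598, 678 and 560.3 CPM in WT vehicle 1 to 4. Ndufa4 was at 147, 129, 173 and 137 CPM in KO Treg 1 to 4, at 124, 112, 187 and 144 CPM in KO vehicle 1 to 4 and at 178, 159, 119 and 123 CPM in WT vehicle 1 to 4. KO vehicle 3 and WT vehicle 1 were the highest libraries for all 3 of these genes, and the groups overlapped. Cox6b1 was at 649, 991, 1024 and 896 CPM in KO Treg 1 to 4, at 562, 1008, 1181 and 897 CPM in KO vehicle 1 to 4 and at 1243, 1014, 755 and 653 CPM in WT vehicle 1 to 4. Cox7a2l was at 288, 424, 478 and 358 CPM in KO Treg 1 to 4, at 307, 378, 411 and 362 CPM in KO vehicle 1 to 4 and at 442, 364, 391 and 328 CPM in WT vehicle 1 to 4. Cox6b1 had its lowest level in KO vehicle 1, and Cox7a2l was highest in KO Treg 3 and lowest in KO Treg 1.

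Markers of brown and beige fat, which is rich in mitochondria, were set beside the subunits. Ucp1 was at 0.711, 43.2, 1.40 and 0.121 CPM in KO Treg 1 to 4, 0.457, 779, 216 and 0.203 CPM in KO vehicle 1 to 4, and 1968, 0.965, 0.539 and 47.4 CPM in WT vehicle 1 to 4. KO vehicle 2, KO vehicle 3 and WT vehicle 1 stood far above the other 9 libraries, which were all at 47.4 CPM or less. KO vehicle 3 and WT vehicle 1 also had the highest subunit sums, while KO vehicle 2 lay among the lower libraries. Of 10 brown or beige markers 8 were tested. All 8 were below 0 in all 3 comparisons, against 50.3% to 51% of all genes, and 0 were called, against at most 0.197% in either direction. Their summed level was 119 to 464 CPM in KO Treg, 61.8 to 2264 CPM in KO vehicle and 140 to 5786 CPM in WT vehicle. Cox7a1 and Cox8b, the isoforms left out of the set, were at 9.48 to 32.8 and 50.6 to 85.1 CPM in KO Treg, at 10.7 to 119 and 20.4 to 157 CPM in KO vehicle, and at 9.52 to 199 and 64.0 to 402 CPM in WT vehicle. Their part in the subunit levels was not tested.

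The ATP synthase genes stood lower relative to complexes I and IV in those same libraries, a pattern noticed after the values were seen and given without a test. The ratio of the summed level of complex V to that of complex IV was 1.67, 1.46, 1.46 and 1.51 in KO Treg 1 to 4, 1.46, 1.32, 1.35 and 1.49 in KO vehicle 1 to 4, and 1.40, 1.5, 1.45 and 1.51 in WT vehicle 1 to 4. The 3 lowest ratios were those of KO vehicle 2, KO vehicle 3 and WT vehicle 1, the 3 libraries with most Ucp1. The ratio of complex V to complex I was likewise lowest in these 3, at 0.875, 0.896 and 0.909, against 0.954 or more in the other 9. KO Treg 1, with 0.711 CPM of Ucp1, had the highest of both ratios. Against complexes II and III the 3 libraries were not the lowest 3. The ratio of complex V to complex III was lowest in WT vehicle 3, at 2.13 with 0.539 CPM of Ucp1, and KO Treg 1, at 2.24, lay below KO vehicle 2, at 2.25. The ratio of complex V to complex II was lowest in WT vehicle 1, at 8.24, and next in KO vehicle 2, at 8.91, but was 9.65 in KO vehicle 3, above the 9.61 of KO Treg 4, the 9.59 of WT vehicle 2 and the 9.63 of WT vehicle 3.

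**Figure D5:**
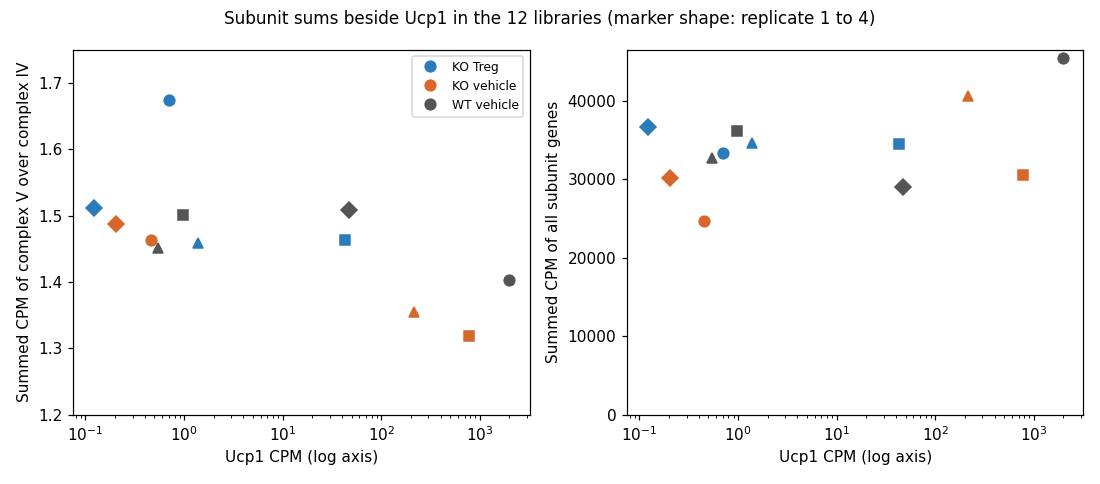
Ucp1 level in CPM (x axes, log scale) against the ratio of summed complex V to summed complex IV level (left, axis not from 0) and against the summed CPM of all subunit genes (right), with 1 point per library, coloured by group (KO Treg, KO vehicle, WT vehicle) and shaped by replicate 1 to 4. The 3 libraries at the right of each panel have the 3 lowest ratios, and their subunit sums are the highest, the second highest and the ninth highest of 12.

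Genes that build or serve the complexes did not pass the test either; edgeR called 0 of their members in any comparison. Of 14 genes listed as complex I assembly factors, 12 were below 0 in KO vehicle against WT vehicle. In KO Treg against KO vehicle 7 were below 0, and in KO Treg against WT vehicle 12. For complex IV assembly factors, of which 22 were tested, the counts were 17, 9 and 18, for 6 complex III factors 4, 4 and 6, for 5 complex V factors 4, 3 and 5, and for 2 complex II factors 2, 1 and 2. Of 13 electron carriers and their makers, 11, 8 and 10 were below 0, and of 15 regulators of respiratory genes 10, 9 and 14. Over all genes tested, 50.8%, 50.3% and 51% were below 0 in the same order. The medians of KO vehicle against WT vehicle ran from -0.14 to -0.03 over these 7 lists. The median was -0.20 for the subunits and -0.0039 over all genes. The lists are not free of subunits, since Ndufab1 (complex I list), Cyc1 (carriers) and Usmg5 (complex V list) are subunits outside the set. Their log2 fold changes in KO vehicle against WT vehicle were -0.26, -0.27 and -0.24. Ppargc1a, the coactivator that drives mitochondrial gene expression, was at 3.26 to 7.47 CPM in KO Treg, 2.74 to 19.2 CPM in KO vehicle and 4.31 to 25.7 CPM in WT vehicle, highest in WT vehicle 1 and next in KO vehicle 3. Esrra, the estrogen-related receptor alpha, was at 47.1 to 61.7 CPM in KO Treg, 43.3 to 60.9 CPM in KO vehicle and 53.2 to 93.8 CPM in WT vehicle. Esrra was highest in WT vehicle 1 and lowest in KO vehicle 1, as were most subunits. For Ppargc1a, KO vehicle 2 came next after KO vehicle 3, although the subunit sum of KO vehicle 2 was among the lower ones. Of the 15 regulators, only Ppargc1a and Esrra are given by library. Others, Tfb1m and Hif1a among them, were above 0 in KO vehicle against WT vehicle. Whether the regulators take part in the subunit levels was not tested.

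Signals of other tissues differed between libraries, and so did Fasn, which is a lipid synthesis gene and not a marker of another tissue. The 12 placental markers summed to 18.7, 297, 32.0 and 19.9 CPM in KO Treg 1 to 4, 119, 14.5, 18.3 and 19.1 CPM in KO vehicle 1 to 4, and 12.9, 21.3, 19.9 and 31.7 CPM in WT vehicle 1 to 4, with KO Treg 2 and KO vehicle 1 above the rest and Prl7d1 and Prl6a1 at 0 in all 12; KO vehicle 1 was also the library with the lowest subunit levels. Fasn, the fatty acid synthase, was at 19218, 6694, 2341 and 15694 CPM in KO Treg 1 to 4, 558, 778, 12524 and 2025 CPM in KO vehicle 1 to 4, and 6994, 18138, 10009 and 2141 CPM in WT vehicle 1 to 4. KO vehicle 1 and 2 had the least Fasn, while WT vehicle 1 had less Fasn than 5 other libraries. The 10 skeletal muscle markers summed to 32.7 to 97.2 CPM in KO Treg, 99.2 to 144 CPM in KO vehicle and 17.8 to 156 CPM in WT vehicle, and Ckm, muscle creatine kinase, was at 0 in KO vehicle 1. Of 7 skeletal muscle markers tested, 6 were below 0 in KO vehicle against WT vehicle, 2 in KO Treg against KO vehicle and 7 in KO Treg against WT vehicle. The 8 smooth muscle markers, all tested, had fold changes mostly on the same side of 0 as most subunits in each comparison: 8 were below 0 in KO vehicle against WT vehicle, 1 in KO Treg against KO vehicle and 8 in KO Treg against WT vehicle. Over all genes tested, 50.8%, 50.3% and 51% were below 0 in these comparisons. The medians of the smooth muscle markers on the log2 scale were -1.60, 0.66 and -1.01, and edgeR called 0 of them, against at most 0.197% of all genes in either direction. In KO vehicle against WT vehicle the log2 fold change was -2.82 for Cnn1, calponin, -2.12 for Des, desmin, and -1.73 for Myh11, smooth muscle myosin (edgeR adjusted p = 0.363, 0.299 and 0.388). The smooth muscle markers summed to 723, 1189, 220.2 and 454 CPM in KO Treg 1 to 4, 400.2, 327, 489.9 and 828 CPM in KO vehicle 1 to 4, and 256, 1439, 2123 and 1329 CPM in WT vehicle 1 to 4. WT vehicle 1, with the highest subunit levels, had the lowest smooth muscle sum but for KO Treg 3. Whether these signals take part in the subunit levels was not tested.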

How the data were processed

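RNA from gonadal white fat of 12 pregnant mice was made into QuantSeq 3' libraries, per the labels' protocols. Each library has a table of whole-number read counts by gene symbol, as the authors deposited it. HTSeq 0.6.1, TopHat2 2.1.1, BWA 0.7.12 and SAMtools 1.3.1 and the build mm10 are named in the submitters' processing notes. The sources used here do not give their settings or the annotation.

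The members and all lists were chosen with earlier results of these data known. After filterByExpr and TMM scaling, counts went into the robust quasi-likelihood test of edgeR 4.0.16 in R 4.3.3, all 12 libraries in a single fit, with Benjamini-Hochberg adjustment over all 12175 genes tested, threshold 0.05. Each library has its own animal number in the labels, taken as 1 animal. Replicates are numbered in accession order, which pairs nothing. No pair of libraries agreed within sampling noise (lowest chi-square per gene 12.5 over 66 pairs). CPM use TMM-scaled totals, and the standard error (SE) is the log2 fold change over the square root of F. Isoform shares, in sets with at least 10 counts of each isoform in every library, were compared by exact permutation tests (SciPy 1.17.1). Matches of 3' ends to other genes, overlapping genes included, were found with BLAST 2.17.0, and positions are from GENCODE M21. The edgeR, DESeq2 and limma voom fits were tested on simulated counts with known changes. That check covered no other step.

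Values in every library are given, per complex, for the tested member with the highest mean CPM, the member with the smallest p in each comparison, and the members of isoform sets. Other members were named after their values were seen. Alternatives were other scalings and filters, DESeq2 1.42.0, limma 3.58.1 voom with quality weights, a fit that was not robust, fits of the compared groups alone, the number series (2 runs of animal numbers, which the labels do not call a batch), and leaving out libraries.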

Additional observations from a re-analysis of the deposited data

Results flagged for a closer look

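Of 111 combinations of a measure and a group examined, over the complex sums and their ratios, the isoform shares and the levels of the members named by rule, 5 held a library far from the other 3 of its group, and chance alone marks about 1 in 20 such groups. In KO Treg, Cox4i1 was at 487 CPM in KO Treg 3, below the 559 to 568 CPM of the other libraries. The other 4 all lay in KO vehicle 3, above the rest of KO vehicle. Uqcrh was at 1594 CPM there, against 1038 to 1133 CPM in the other KO vehicle libraries. Uqcrc1 was at 83.3 CPM, against 53.9 to 58.5 CPM. Cox4i1 was at 680 CPM, against 413 to 457 CPM, and Cox6a1 at 857 CPM, against 518 to 574 CPM. These 4 genes share the library and are not independent of each other.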

How the results depend on the processing

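In all 24 alternative settings, 0 members were called in any comparison, while the count of all genes called in KO vehicle against WT vehicle, 34 in the fit reported, ran from 0 to 259 (259 by DESeq2). The lowest edgeR adjusted p of a named member was 0.122, for Atp5j in KO vehicle against WT vehicle without WT vehicle 4. The group means of the 5 complexes moved by less than 1 SD under every scaling tried. Leaving out 1 of 4 libraries cannot move a mean by 1 SD, so nothing is read from that setting. No paired analysis was possible because replicate numbers follow accession order and tie no animals together.

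Of the values of named members under alternatives, 631 kept their direction and 14 turned, the cause of which was not tested. Most of these fold changes were chosen for a small p, and the settings share most of their libraries. The tally therefore does not measure how firm the directions are. Cox8a in KO vehicle against WT vehicle was -0.01 on the log2 scale and 0.0093 with limma voom, 0.061 without the placental transcript libraries, and -0.17 to 0.082 when single libraries were left out. In KO Treg against KO vehicle it was 0.07, and -0.019 in the lower number series and -0.00063 without the placental libraries. Ndufb8 was -0.11 in KO vehicle against WT vehicle, 0.027 without the placental libraries and -0.35 to 0.088 without single libraries, and in KO Treg against KO vehicle 0.04, -0.13 and -0.096 to 0.28. Uqcrfs1 in KO Treg against WT vehicle was -0.25, 0.0029 without the 3 libraries with most Ucp1, and -0.39 to 0.0037 without single libraries.

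Leaving out single libraries also turned differences in isoform shares, in percentage points. For Cox6b1 they ran from -0.0844 to 0.0234 in KO Treg against KO vehicle, from -0.0865 to 0.00804 in KO Treg against WT vehicle, and from -0.0676 to 0.0502 in KO vehicle against WT vehicle. For Cox7a2 they ran from -3.90 to 1.80, from -4.46 to 1.24 and from -1.82 to 0.116 in the same order. In KO vehicle against WT vehicle, Atp5g1 ran from -0.162 to 1.44 and Atp5g3 from -1.23 to 0.262. The Atp5g3 share in KO Treg over KO vehicle ran from 1.98 to 2.97. Since every KO Treg share lay above every KO vehicle share, leaving out a library could not turn it, and nothing is read from this. With 4 libraries a group and an SD of the library median of 0.280 on the log2 scale, shifts as small as the medians reported cannot be separated from differences between animals. Sdhd, Atp5s and Cox6b2 had under 80 counts in every library.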

Other observations

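A few subunit genes did not follow the other members from library to library. With each library's median taken out, Ndufa1, a small complex I subunit encoded on the X chromosome, had the largest SD left, 0.416 on the log2 scale, and ran from 86.3 CPM in KO Treg 2 to 259 CPM in WT vehicle 2. Ndufb3, another complex I subunit, was at 806 CPM in KO Treg 3 and 314 CPM in WT vehicle 3 (SD left 0.364). Cox7c, a small complex IV subunit, was at 107 CPM in KO vehicle 1 and 303 CPM in WT vehicle 2 (0.342). The tightest was Ndufc1, of the complex I membrane arm, with 0.0455 left, followed by Atp5b with 0.0550. These genes were picked after their values were seen, and no test was made.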
